A study of Mus musculus with 11 samples.

Results

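A set of 10 genes that mark the disease-associated state of microglia was followed in ribosome-bound RNA from spinal cord: Clec7a, Tyrobp, Spp1, Lgals3, Lyz2, Cst7, Gpnmb, Cd9, Cd63 and Fth1. They are the rows of the deposited count table whose Ensembl identifiers map to these symbols, 10 of 39017 genes in the table, and all 10 of them were among the 16025 genes with enough counts to be tested. The mutant mice are labelled Kdm6a cKO (5 samples, cKO2, cKO4, cKO5, cKO6 and cKO7) and the controls wildtype (WT, 6 samples, WT8, WT9, WT13, WT15, WT16 and WT17). Where a gene is given library by library, its values stand in this order. Both groups are female C57BL/6 mice labelled healthy, and both carry Tmem119-Cre/ERT2, a tamoxifen-dependent Cre driven by a microglial promoter, with a RiboTag allele that puts an epitope on a ribosomal protein in cells with Cre activity. In the cKO the same Cre deletes Kdm6a, an X-linked gene whose product removes methyl groups from lysine 27 of histone H3. The sources used here do not give age, tamoxifen schedule or the number of animals per sample, so a p-value here speaks only to how far these samples differ from one another, which may be technical.

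Disease-associated microglia (DAM) were first described in mouse models of neurodegeneration, where microglia around plaques, dying neurons or damaged myelin lower their homeostatic genes and raise genes for lipid handling, lysosomes and phagocytosis. The change is usually described in stages: an early stage that does not need the receptor Trem2, to which Tyrobp, Fth1 and Lyz2 are assigned, and a later stage that does, to which Clec7a, Cst7 and Cd9 are assigned. Spp1, Gpnmb, Lgals3 and Cd63 rise in related states of microglia in injured white matter and around plaques. In healthy tissue several of these genes are already made by microglia at a high level, while others are low until the cells respond to damage.

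Library totals ran from 28620584 to 36259520 counts in cKO and from 32768942 to 40943004 in WT. Counts were scaled to CPM, by library total, with TMM factors, which equalise the bulk of genes between libraries. Kdm6a spanned 3.80 to 7.73 CPM in cKO and 7.24 to 12.03 CPM in WT. The ranges overlapped, and its log2 fold change of -0.61 (SE 0.25) did not pass edgeR's quasi-likelihood test (adjusted p = 0.193). The sources used here do not name the deleted exons, so counts over the whole gene check the deletion only in part. Of 15 homeostatic microglia markers 14 had counts, and their summed level was 47249 to 49090 CPM in cKO and 34809 to 44405 CPM in WT, with no overlap and 8 of the 14 higher. Endothelial markers also differed in sum, at 45.6 to 51.9 CPM in cKO and 52.5 to 178 CPM in WT, with no overlap and 2 of 11 lower, and their part in the results below was not tested. Beside these counts of calls, 1.86% of all genes tested were higher and 2.43% lower in cKO. WT13, WT16 and WT17 stood apart from the other 8 libraries: their summed neuronal markers were at 2049 to 3010 CPM, against 1234 to 1527 CPM in the others, and their summed homeostatic markers at 34809 to 37855 CPM, against 41907 to 49090 CPM. The results below are given with all libraries, and without these 3 where that matters.

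One of the 10 markers, Lyz2, was lower in cKO, and none was higher (edgeR's quasi-likelihood test, adjusted p under 0.05 after Benjamini-Hochberg adjustment over 16025 genes). Over all genes tested 4.29% passed, 1.86% higher and 2.43% lower in cKO, and 4.16% had groups that did not overlap, 2.17% with cKO above WT and 1.99% with cKO below it. At an unadjusted p under 0.05, 2 of the 10 were higher (Spp1 and Lgals3) and 1 lower. The share of all genes at that cutoff is not given here, so unadjusted counts, here and in the lists below, have no background to be read against. DESeq2 called 0 higher and 1 lower of the 10, beside 509 higher and 716 lower of 13645 genes. With 1 of 10 called and 1 of 10 not overlapping, the share among the markers rests on a single gene. The median log2 fold change of the 10 was -0.12, beside -0.01 over all genes tested, and 6 of the 10 had a negative value, beside 51.6% of all genes. When library totals replaced the TMM factors, the calls over all genes split into 203 higher and 601 lower in place of 298 and 389, and Lyz2 was still the only marker called. Without WT13, WT16 and WT17 Lyz2 was again the only one of the 10 called, and the median of the 10 was -0.22.

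**Figure D1:**
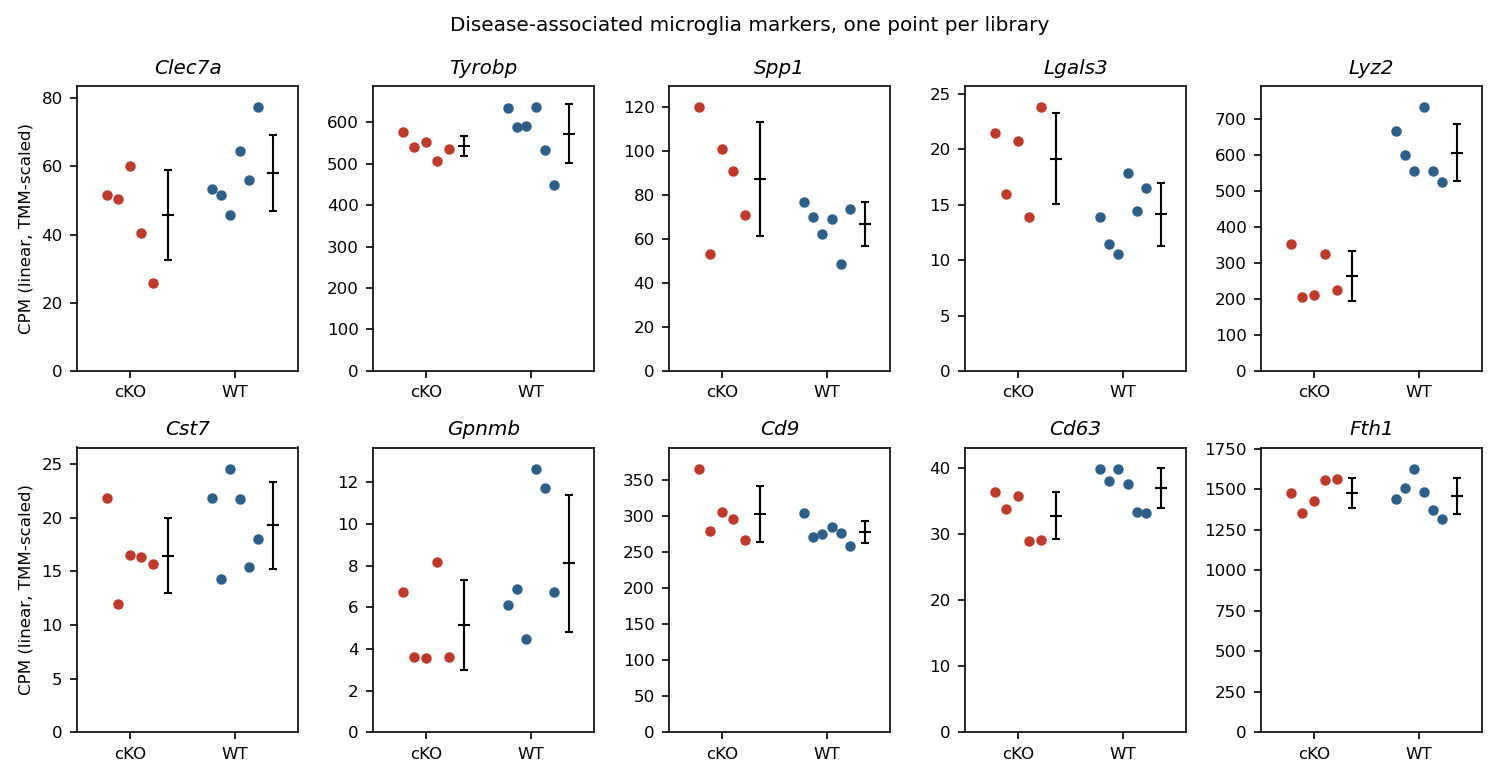
Level of each of the 10 markers in every library, in TMM-scaled CPM on a linear axis that starts at 0. Red points are the 5 cKO libraries and blue points the 6 WT libraries, and the black bar beside each group is the mean with 1 SD. Only the Lyz2 points of the genotypes do not overlap: the highest cKO library is at 352 CPM and the lowest WT library at 524 CPM.

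**Figure D2:**
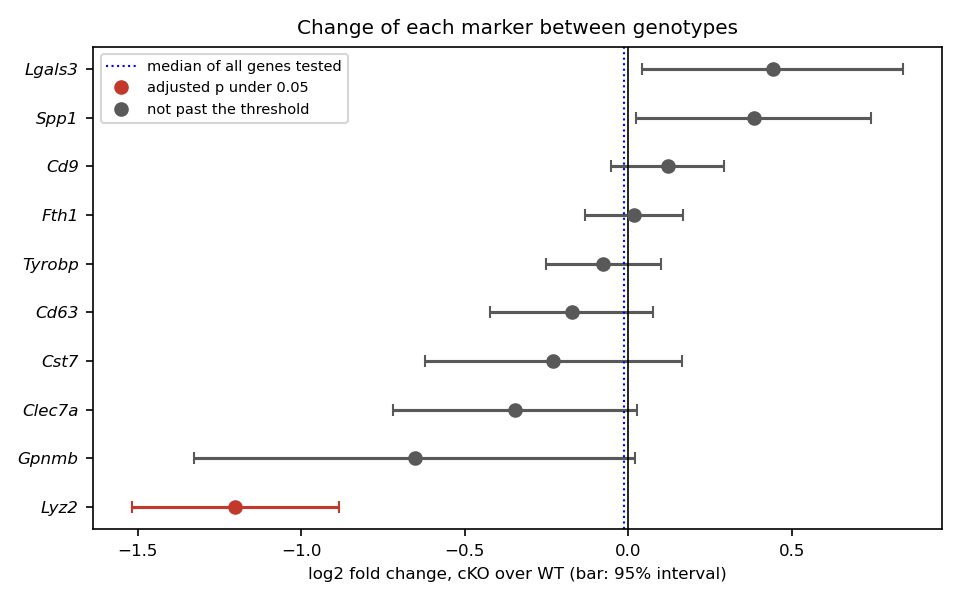
Log2 fold change of each marker, cKO over WT, with its 95% interval from the quasi-likelihood fit. The interval of Lyz2 (red) lies between -1.52 and -0.89, and the 9 markers in grey did not pass the threshold. The dotted line is the median of all genes tested.

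The markers differed widely in level. Compared per kilobase of annotated exon, the order in WT was Tyrobp (858 ± 107 CPM per kb, SD, n = 6), Lyz2 (461 ± 60.3), Fth1 (420 ± 31.4), Cd9 (136 ± 7.57), Spp1 (40.5 ± 6.09), Clec7a (22.01 ± 4.28), Cst7 (19.6 ± 4.10), Cd63 (10.1 ± 0.821), Lgals3 (7.60 ± 1.52) and Gpnmb (1.24 ± 0.504). Among neighbours in this order the WT libraries overlapped between Lyz2 and Fth1, between Clec7a and Cst7, and between Cd63 and Lgals3, and the other neighbours did not overlap. In cKO the order of Lyz2 and Fth1 was the other way round without overlap: Lyz2 was at 200 ± 53.1 CPM per kb and Fth1 at 426 ± 26.1 CPM per kb (SD, n = 5). Lgals3 (10.3 ± 2.20) and Cd63 (8.92 ± 0.963) also changed places in cKO, with overlapping libraries. The place of Cd63 is uncertain in both groups, because a near-identical pseudogene, Cd63-ps, took 204 to 262 CPM in cKO and 209 to 250 CPM in WT, far more than Cd63 itself. Spread between libraries followed the level in part: the coefficient of variation was 4.60% in cKO and 12.5% in WT for Tyrobp, and 42.2% in cKO and 40.6% in WT for Gpnmb. Fth1, at 6.12% in cKO and 7.48% in WT, and Cd9, at 12.7% in cKO and 5.55% in WT, were among the steadier ones.

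Lyz2 encodes the lysozyme of macrophages and microglia, a secreted and lysosomal enzyme that cleaves bacterial cell wall peptidoglycan. The gene (ENSMUSG00000069516) lies on chromosome 10 from 117277331 to 117282321 on the minus strand (GRCm38, the assembly of mm10). It had 352, 204, 210, 325 and 226 CPM in the cKO libraries, against 666, 601, 557, 734, 557 and 524 CPM in the WT libraries. Every cKO library lay below every WT library, and within cKO the libraries cKO2 and cKO6 were above the other 3. The level fell to 264 ± 69.9 CPM in cKO (SD, n = 5), against 606 ± 79.3 CPM in WT (SD, n = 6), and the fitted cKO level was 43.5% of that in WT (log2 fold change -1.20, SE 0.15, 95% interval -1.52 to -0.89; edgeR adjusted p = 0.000151). It passed in 19 of 19 alternative settings, at log2 fold changes between -1.43 and -1.12, and at -1.34 without WT13, WT16 and WT17 (adjusted p = 0.0227 in edgeR; 5.35e-16 to 0.0227 over all alternatives). In ribosome-bound RNA pooled over cells, differences such as fewer cells that make a transcript and less of it per cell cannot be told apart.

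Lyz2 is also a gene of monocytes and neutrophils, which a spinal cord pulldown could carry. Of 12 neutrophil markers 6 had 0 counts in every library (Camp, Ltf, Elane, Mpo, Retnlg and Cxcr2) and 2 were tested, of which Csf3r, chosen after its value was seen, fell (log2 fold change -0.35, SE 0.09). The summed list spanned 195 to 273 CPM in cKO and 253 to 320 CPM in WT, with overlap. The other gene tested was Mmp9, named after its value was seen, at 0.06 to 2.31 CPM in cKO and 0.32 to 2.85 CPM in WT. The sum therefore rested almost wholly on Csf3r, and a single gene cannot stand for neutrophils as a cell type. Of 9 monocyte markers 2 had 0 counts (Ly6c2 and Chil3), the sum spanned 4.84 to 15.5 CPM in cKO and 5.62 to 24.6 CPM in WT, and none of the 4 tested passed in edgeR or DESeq2 (0 at an unadjusted p under 0.05). Of 9 markers of border-associated macrophages 2 had 0 counts (Lyve1 and Pf4), the sum spanned 680 to 785 CPM in cKO and 502 to 696 CPM in WT, and none of the 3 tested passed in edgeR, with 1 higher at an unadjusted p under 0.05 and in DESeq2. A count of 0 can also mean that a gene was not measured, as for Aif1, a microglial gene that had 0 counts in every library. The part of these cells in the Lyz2 result was not tested.

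The table separates Lyz2 from its neighbour Lyz1, the lysozyme of Paneth cells in the gut, which lies beside it on chromosome 10. The coding parts, both of 444 bases, differ at 22 positions, an identity of 95.05%. The stretch of 120 bases with the most differences, coding bases 37 to 156 counted from the start codon, is shown because reads across it can be told apart. It holds 14 of the 22 differences, which are in capitals (GENCODE M21 transcripts, 5′ to 3′).
Lyz2: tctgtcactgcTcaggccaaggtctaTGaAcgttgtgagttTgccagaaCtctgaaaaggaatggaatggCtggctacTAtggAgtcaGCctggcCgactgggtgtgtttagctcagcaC
Lyz1: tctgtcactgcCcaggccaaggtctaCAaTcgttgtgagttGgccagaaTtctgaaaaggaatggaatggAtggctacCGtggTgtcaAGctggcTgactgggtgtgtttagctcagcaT
Lyz1 had 34 counts over all 11 libraries, 10 of them in cKO6 and 18 in WT9, against 172257 for Lyz2. Adding the counts of Lyz1 to those of Lyz2 left the log2 fold change at -1.20.

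The start of Lyz2 is shown as the promoter of the only marker that passed, at chr10:117282223-117282522 on the minus strand, from 250 bases before to 50 after the annotated start (RefSeq, GRCm38.p6). Capitals mark the letters ACTTCCT, the reverse complement of AGGAAGT, a core of sites bound by ETS-family factors such as PU.1 (Spi1), the lineage factor of macrophages and microglia.
Lyz2 promoter: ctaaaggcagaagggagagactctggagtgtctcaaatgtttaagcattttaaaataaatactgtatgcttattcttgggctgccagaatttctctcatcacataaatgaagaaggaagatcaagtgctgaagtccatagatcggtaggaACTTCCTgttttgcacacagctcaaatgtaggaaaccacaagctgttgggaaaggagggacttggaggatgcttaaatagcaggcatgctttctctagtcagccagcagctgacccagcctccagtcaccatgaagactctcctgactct
RefSeq windows of this length were found for 9 of the 10 markers, 12 windows in all. AGGAAGT on either strand was present in a window of 3 of these 9 genes, Lyz2, Spp1 and Cst7, beside 10.7% of all genes with a window. The motif was chosen after the windows had been read, and a match is a description and not a site. Spp1 and Cst7, which share the letters with Lyz2, did not pass the threshold. The Lyz2 window held 1 CG dinucleotide, beside a median of 7 over all windows, and 14.1% of all windows held as few.

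The 3 genes whose log2 CPM over the 11 libraries was most like that of Lyz2, by Pearson's r, were Plau, the urokinase plasminogen activator (r = 0.99), Slamf9, a receptor of the SLAM family (r = 0.98), and Apoe, a lipid carrier of the early DAM stage (r = 0.97). The values hold a difference between genotypes that these genes share with Lyz2, so r was also taken over deviations from each group's mean, where it was 0.93, 0.86 and 0.82. They are descriptions over 11 libraries. The log2 CPM values are already scaled for depth, but genes of a library still share its scaling factor and its mix of RNA. Apoe had 1174, 782, 886, 1404 and 973 CPM in the cKO libraries, and between 1753 and 2238 CPM in WT. As for Lyz2, cKO2 and cKO6 were the highest of the cKO libraries. Plau averaged 39.7 ± 9.85 CPM in cKO (SD, n = 5) and 81.3 ± 10.2 CPM in WT (SD, n = 6; edgeR adjusted p = 5.75e-05, log2 fold change -1.03), and Slamf9 73.3 ± 14.9 CPM in cKO and 163 ± 19.6 CPM in WT (log2 fold change -1.15, SE 0.12; edgeR adjusted p = 1.66e-06).

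Clec7a, the receptor dectin-1 that binds fungal beta-glucans and signals through Syk, is among the most used markers of DAM. The gene (ENSMUSG00000079293) is on chromosome 6 from 129461591 to 129472779 on the minus strand. It had 51.6, 50.4, 60.2, 40.5 and 25.9 CPM in the cKO libraries, against 53.3, 51.7, 45.7, 64.5, 56.0 and 77.4 CPM in the WT libraries. The groups overlapped, with the lowest value in cKO7 and the highest in WT17. Its fold change was, on the log2 scale, -0.35 (SE 0.18, 95% interval -0.72 to 0.03, edgeR adjusted p = 0.318). Leaving out single libraries moved it between -0.46 (without cKO5) and -0.20 (without cKO7).

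Tyrobp, also called DAP12, is the membrane adaptor through which Trem2 and other receptors signal. The gene (ENSMUSG00000030579) is on chromosome 7 from 30413760 to 30417585 on the plus strand. It spanned 507 to 576 CPM in cKO, with a mean of 542 ± 25.0 (SD, n = 5), and 448 to 636 CPM in WT, with a mean of 572 ± 71.4 (SD, n = 6). The cKO libraries lay inside the WT range, whose ends were WT17 and WT15. Its log2 fold change was -0.08 (SE 0.08, 95% interval -0.25 to 0.10; edgeR adjusted p = 0.721), and -0.20 without WT13, WT16 and WT17 (adjusted p = 0.105 in edgeR; 0.105 to 0.861 over all alternatives). Trem2, its best known partner in DAM, had 0 counts in every library. The same held for every other protein-coding gene of the table within 250 kb of it (14 genes with Trem2 included), and Trem2 was treated as not measured.

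Of 17 tested partners of Trem2, Tyrobp and Clec7a other than the markers, 3 were higher, 4 lower and 10 did not pass. Over all genes tested 1.86% were higher and 2.43% lower, the shares to set beside this list and those below. The median SE over all genes tested was 0.22. The partners given below with an SE had 0.09 or 0.10, so smaller changes could pass among them. The lists are short and were chosen with earlier results of these data known. The adaptor Lat2 fell to 101 ± 8.56 CPM in cKO, against 179 ± 20.9 CPM in WT (log2 fold change -0.82, SE 0.09; edgeR adjusted p = 6.53e-06); it overlaps Rfc2 on the other strand, whose reads cannot be separated where the strand setting is unknown. The kinase Prkcd also fell (-0.51, SE 0.09). Pik3r1, the regulatory subunit of PI3-kinase, rose (0.67, SE 0.10), as did Siglech, a sialic acid receptor that signals through Tyrobp and is itself a homeostatic marker (0.56, SE 0.10). These 4 passed in 19 of 19 alternatives. Bcl10 (0.44), Plcg2 (-0.38) and the phosphatase Ptpn6 (-0.35), named after their values were seen, passed as well; Bcl10 kept its call in 18 of 19 alternatives, losing it without WT13, WT16 and WT17. Plcg2 kept it in 12 and lost it on leaving out cKO2, cKO4, cKO5, cKO6, WT8, WT9 or WT15. Ptpn6 kept it in 11 and lost it on leaving out cKO4, cKO5, cKO6, cKO7, WT8, WT9, WT15 or WT16. Syk itself was at 0.21 (SE 0.10) and did not pass (edgeR adjusted p = 0.267; chosen after its value was seen).

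Spp1 encodes osteopontin, a secreted protein that binds integrins and CD44. The gene (ENSMUSG00000029304) is on chromosome 5 from 104435118 to 104441050 on the plus strand. It had 120, 53.2, 101, 90.9 and 70.7 CPM in the cKO libraries, against 76.7, 69.9, 62.5, 69.3, 48.8 and 73.7 CPM in the WT libraries. In cKO, the libraries cKO2, cKO5 and cKO6 were above every WT library, and cKO4 was among the lowest values. On the log2 scale the fold change was 0.38 (SE 0.17, 95% interval 0.02 to 0.74), with an edgeR adjusted p of 0.24. The call turned on cKO4: without cKO4 the log2 fold change was 0.52 and passed (edgeR adjusted p = 0.0462; 0.0462 to 0.809 over all alternatives), without cKO2 it was 0.24 and did not pass, and without WT13, WT16 and WT17 it was 0.27.

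Spp1 is also made by motor neurons. Of 6 motor neuron markers 5 were in the table, and their sum spanned 9.87 to 17.5 CPM in cKO and 7.93 to 14.9 CPM in WT, with overlap, and none of the 4 tested passed in edgeR or DESeq2 (0 at an unadjusted p under 0.05). The part of these neurons in the Spp1 level was not tested. Of 10 tested receptors and proteases of osteopontin, the integrin chain Itgb1 rose (0.29, SE 0.08; edgeR adjusted p = 0.0324), with overlapping groups, and 9 did not pass. Itgb1 kept its call in 8 of 19 alternatives. It lost it on leaving out cKO2, cKO4, cKO5, cKO6, WT9, WT13, WT16 or WT17 singly, with library totals (0.20), with a covariate of neuron, astrocyte and oligodendrocyte markers (0.24), and without WT13, WT16 and WT17 (0.23, adjusted p = 0.114 in edgeR; 0.00301 to 0.114 over all alternatives). With library totals, and on leaving out WT9, the whole list, Spp1 included, had 0 higher and 1 lower. Leaving out single libraries gave it 0 to 2 calls.

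Lgals3 encodes galectin-3, a lectin that binds beta-galactosides and is recruited to damaged lysosomes. The gene (ENSMUSG00000050335) is on chromosome 14 from 47367751 to 47386160 on the plus strand. It had 21.5, 16.01, 20.7, 13.9 and 23.8 CPM in the cKO libraries, against 13.9, 11.4, 10.6, 17.9, 14.5 and 16.5 CPM in the WT libraries. Here cKO2, cKO5 and cKO7 were above every WT library, while cKO4 and cKO6 lay within the WT range. Its fold change was, on the log2 scale, 0.44 (SE 0.19, 95% interval 0.04 to 0.84; edgeR adjusted p = 0.219) and stayed between 0.35 and 0.54 in the 19 alternatives, none of which passed. Among 8 tested galectins and ligands, Mertk, a receptor for dying cells that galectin-3 can bind, rose to 583 ± 47.3 CPM in cKO, against 380 ± 66.7 CPM in WT (0.62, SE 0.11; edgeR adjusted p = 0.00101), and the amino acid transporter chain Slc3a2 rose (0.45, SE 0.08). The other 6 did not pass. With the marker covariate, without WT13, and without WT13, WT16 and WT17, the galectin list had 2 higher and 2 lower.

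Cst7 encodes cystatin F, a lysosomal inhibitor of cathepsins such as cathepsin C. The gene (ENSMUSG00000068129) is on chromosome 2 from 150570415 to 150578944 on the plus strand. It spanned 11.98 to 21.8 CPM in cKO (mean 16.5 ± 3.50, SD, n = 5) and 14.3 to 24.6 CPM in WT (mean 19.3 ± 4.04, SD, n = 6). The groups overlapped: cKO2 lay near the top of the WT range, and cKO4 was the lowest library. Its log2 fold change was -0.23 (SE 0.19, 95% interval -0.62 to 0.16; edgeR adjusted p = 0.592), -0.13 without cKO4 and -0.35 without cKO2. Of 9 tested cystatins and target proteases, Cst3, the secreted cystatin C, rose (0.47, SE 0.08), Ctsc, which encodes cathepsin C, fell to 271 ± 11.7 CPM in cKO, against 357 ± 35.96 CPM in WT (-0.40, SE 0.08), and 7 did not pass. Both held in 19 of 19 alternatives.

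Gpnmb encodes a transmembrane glycoprotein of lysosomes that MiT/TFE transcription factors induce. The gene (ENSMUSG00000029816) is on chromosome 6 from 49036546 to 49070929 on the plus strand. It was the lowest of the 10, also per kilobase, with 6.73, 3.63, 3.57, 8.19 and 3.63 CPM in the cKO libraries, against 6.13, 6.89, 4.49, 12.7, 11.7 and 6.74 CPM in the WT libraries. In cKO, 3 libraries lay below every WT library and the others inside the WT range, and WT15 and WT16 were far above the rest. The counts behind these values were 102 to 224 in cKO and 196 to 414 in WT. On the log2 scale the fold change was -0.65 (SE 0.33, 95% interval -1.33 to 0.02; edgeR adjusted p = 0.292), the widest interval of the 10, and it ran from -0.97 to -0.48 over the alternatives without passing. Of 9 tested MiT/TFE factors and lysosomal partners none passed in edgeR, and DESeq2 called 1 higher. At an unadjusted p under 0.05, 2 were higher: Lamp1, a lysosomal membrane protein, at 0.16 (SE 0.07), and Flcn, a regulator of these factors that was chosen after its value was seen, at 0.31 (SE 0.09; edgeR adjusted p = 0.0595). Flcn spanned 103 to 135 CPM in cKO and 88.8 to 99.5 CPM in WT, without overlap. The factor Tfe3 was at -0.04 (SE 0.08).

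Cd9 encodes a tetraspanin of the cell surface. The gene (ENSMUSG00000030342) is on chromosome 6 from 125460266 to 125494791 on the minus strand. It spanned 267 to 366 CPM in cKO (mean 303 ± 38.6, SD, n = 5) and 259 to 305 CPM in WT (mean 279 ± 15.5, SD, n = 6). The groups overlapped except that cKO2 and cKO5 were above every WT library. Its fold change was, on the log2 scale, 0.12 (SE 0.08, 95% interval -0.05 to 0.29; edgeR adjusted p = 0.494). Cd9 and Fth1 are also made by oligodendrocytes: of 13 oligodendrocyte markers 11 were tested and none passed in edgeR or DESeq2 (2 lower at an unadjusted p under 0.05), and their sum spanned 4908 to 5637 CPM in cKO and 4809 to 6229 CPM in WT, the highest in WT17. Their part in the Cd9 and Fth1 levels was not tested.

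Cd63 encodes a tetraspanin of late endosomes and exosomes, and its level in the table is uncertain. The gene (ENSMUSG00000025351) is on chromosome 10 from 128900989 to 128912822 on the plus strand. A processed pseudogene, Cd63-ps on chromosome 18, matches its coding part over all 714 bases at 98.9% identity, and the table gives the pseudogene far more counts than the gene. Cd63 spanned 29.0 to 36.4 CPM in cKO and 33.2 to 40.0 CPM in WT, while Cd63-ps spanned 204 to 262 CPM in cKO and 209 to 250 CPM in WT. Log2 fold changes were -0.17 (SE 0.12, 95% interval -0.42 to 0.08; edgeR adjusted p = 0.498) for Cd63 and -0.03 (SE 0.08) for Cd63-ps, and for the sum, an alternative added after the data were seen, -0.05 (SE 0.08, edgeR adjusted p = 0.847; 0.244 to 0.847 over all alternatives). Of 13 tested tetraspanins and partners beside Cd9 and Cd63, Tspan3 rose (0.32, SE 0.08; edgeR adjusted p = 0.024) and 12 did not pass. Tspan3 kept its call in 12 of 19 alternatives. It lost it on leaving out cKO4, cKO5, cKO6 or WT9 singly, with library totals (0.23), with the marker covariate (0.29), and without WT13, WT16 and WT17 (0.30, adjusted p = 0.0552 in edgeR; 0.000848 to 0.096 over all alternatives). With library totals, with the marker covariate, and without those 3 libraries, the whole list, Cd9 and Cd63 included, had 0 higher and 1 lower. Leaving out single libraries gave it 0 to 2 calls, all of them higher.

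**Figure D3:**
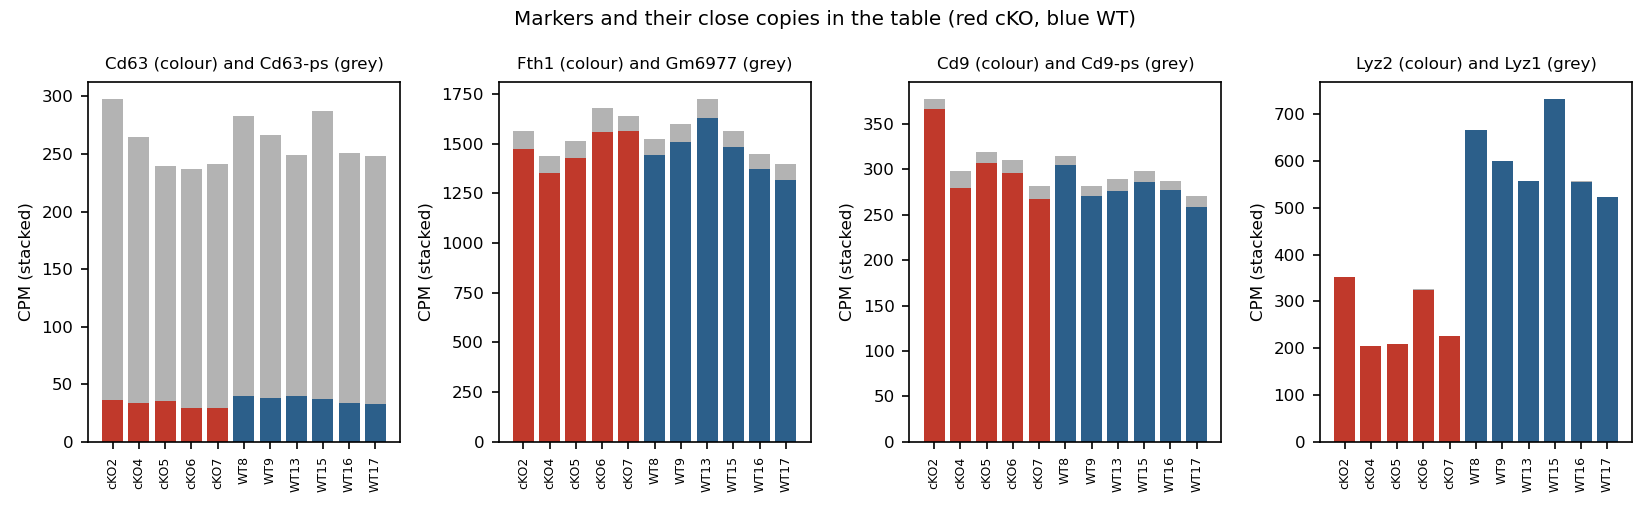
CPM of 4 markers (colour, red for cKO and blue for WT) with the CPM of their close copy in the table stacked on top (grey), 1 bar per library, linear axes that start at 0. Cd63-ps takes most of the Cd63 pair in every library, at 204 to 262 CPM in cKO, while Lyz1 adds almost nothing to Lyz2.

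Fth1 encodes the heavy chain of ferritin, the iron storage shell, which oxidises the iron it takes up. The gene (ENSMUSG00000024661) is on chromosome 19 from 9980598 to 9985098 on the plus strand. It spanned 1352 to 1566 CPM in cKO (mean 1476 ± 90.4, SD, n = 5) and 1318 to 1628 CPM in WT (mean 1459 ± 109, SD, n = 6), and the cKO range lay inside the WT range. On the log2 scale the fold change was 0.02 (SE 0.07, 95% interval -0.13 to 0.17; edgeR adjusted p = 0.944), with the narrowest interval of the 10. With library totals it was -0.07, while the median of all genes was -0.10, against -0.01 with TMM factors, so its place relative to other genes hardly moved. A processed pseudogene, Gm6977, matches 96.0% of the coding part at 90.5% identity and had a mean count of 2956, and Cd9-ps matches 97.5% of the coding part of Cd9 at 90.6% identity with a mean count of 437. Summing each pair gave 0.02 for Fth1 and 0.13 for Cd9. None of 18 tested genes of iron handling beside Fth1 passed: the transferrin gene Trf, which an annotated gene overlaps on the same strand, was at 0.02 (SE 0.07), and -0.07 with library totals under the same shift of all genes, and the iron chaperone Pcbp1 was at 0.21 (SE 0.08). At an unadjusted p under 0.05, 4 were higher and 1 lower. The list, Fth1 included, had 1 higher call in DESeq2, with no filter on low counts, and on leaving out cKO2, WT8, WT13 or WT15 singly.

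The 10 markers belong to wider DAM lists, chosen with earlier results of these data known. Their counts of calls stand beside 1.86% higher and 2.43% lower over all genes tested, whose median SE of 0.22 was above those given here. Of 5 tested early genes beside Tyrobp, Fth1 and Lyz2, 3 were higher, 1 lower and 1 did not pass, with a median log2 fold change of 0.28. Apoe fell (-0.998, SE 0.12). Ctsd and Ctsb, which encode lysosomal cathepsins, rose (0.37, SE 0.08, and 0.32, SE 0.07), with every cKO library above every WT library, and held in 19 of 19 alternatives. Timp2, an inhibitor of metalloproteinases, was counted in the early list here, but it is usually assigned to the later stage. Placed there, its call would count with the late genes, and both list medians would change. The early median of 0.28 is the value of Timp2 itself, so it does not describe the early genes without it. Timp2 rose (0.28, SE 0.08, edgeR adjusted p = 0.0428) but kept its call in only 7 of 19 alternatives. It lost it on leaving out any single library other than WT8 and WT15, with library totals (0.20) and with the marker covariate (0.16), and was at 0.15 without WT13, WT16 and WT17 (adjusted p = 0.254 in edgeR; 0.00834 to 0.254 over all alternatives). Within the early list Lyz2 and Apoe were lower, both cathepsins higher, and Tyrobp, Fth1 and, named after its value was seen, B2m (-0.11) not past the threshold.

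The late list as used here did not hold Timp2, which was called higher. Of its 7 tested genes beside Clec7a, Cst7 and Cd9, none was higher, 2 were lower and 5 did not pass. Their median was -0.28, and over all genes 1.86% were higher and 2.43% lower. At an unadjusted p under 0.05, 1 was higher, and DESeq2 called 0 higher. The chemokine Ccl6 fell to 172 ± 11.1 CPM in cKO, against 264 ± 42.4 CPM in WT (-0.62, SE 0.10; edgeR adjusted p = 0.000408), and held in 19 of 19 alternatives. Cd68, a lysosomal glycoprotein of phagocytes, fell to 846 ± 46.0 CPM in cKO, against 1020 ± 100 CPM in WT (-0.27, SE 0.08; edgeR adjusted p = 0.0461), and kept its call in 11 of 19 alternatives. With WT13, WT16 and WT17 left out it kept it, at -0.40. It lost it in 8, each without 1 library: cKO2, cKO4, cKO5, cKO6, cKO7, WT8, WT9 or WT15.

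Of 25 tested further DAM genes beside Spp1, Gpnmb, Lgals3 and Cd63, 5 were higher, 2 lower and 18 did not pass, with a median of 0.05. The shares over all genes tested were 1.86% higher and 2.43% lower. Cd52, a small surface glycoprotein, fell to 80.1 ± 12.7 CPM in cKO, against 255 ± 26.5 CPM in WT (-1.67, SE 0.11; edgeR adjusted p = 7.51e-10). Plin2, which coats lipid droplets, rose to 51.9 ± 5.65 CPM in cKO, against 32.4 ± 6.04 CPM in WT (0.68, SE 0.13), and the lysosomal carboxypeptidase Ctsa rose (0.34, SE 0.07), as did Vat1 (0.44, SE 0.10). Vat1 overlaps Rnd2 and Ctsa overlaps Pltp on the other strand, so reads can be shared. Cd52, Plin2, Ctsa and Vat1 held in 19 of 19 alternatives. The rest of the calls, named after their values were seen, were Syngr1 (0.30) and the chemokine Ccl3 (0.56), which rose, and the fatty acid carrier Fabp5 (-1.06), which fell with overlapping groups. Syngr1 kept its call in 18 of 19 alternatives, all but library totals. Ccl3 kept it in 11 and lost it on leaving out cKO2, cKO4, cKO5, WT16 or WT17, with library totals (0.48) and with the marker covariate (0.40). Fabp5 kept it in 10 and lost it on leaving out cKO2, cKO4, cKO5, cKO7, WT13, WT16 or WT17 and with the marker covariate (-0.71). Without WT13, WT16 and WT17 Ccl3 was at 0.43 and Fabp5 at -0.59, neither past the threshold. Without these 3 libraries the further list, Spp1, Gpnmb, Lgals3 and Cd63 included, had 4 higher and 5 lower, against 5 and 2 with all libraries, and with library totals it had 3 higher and 4 lower.

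**Figure D4:**
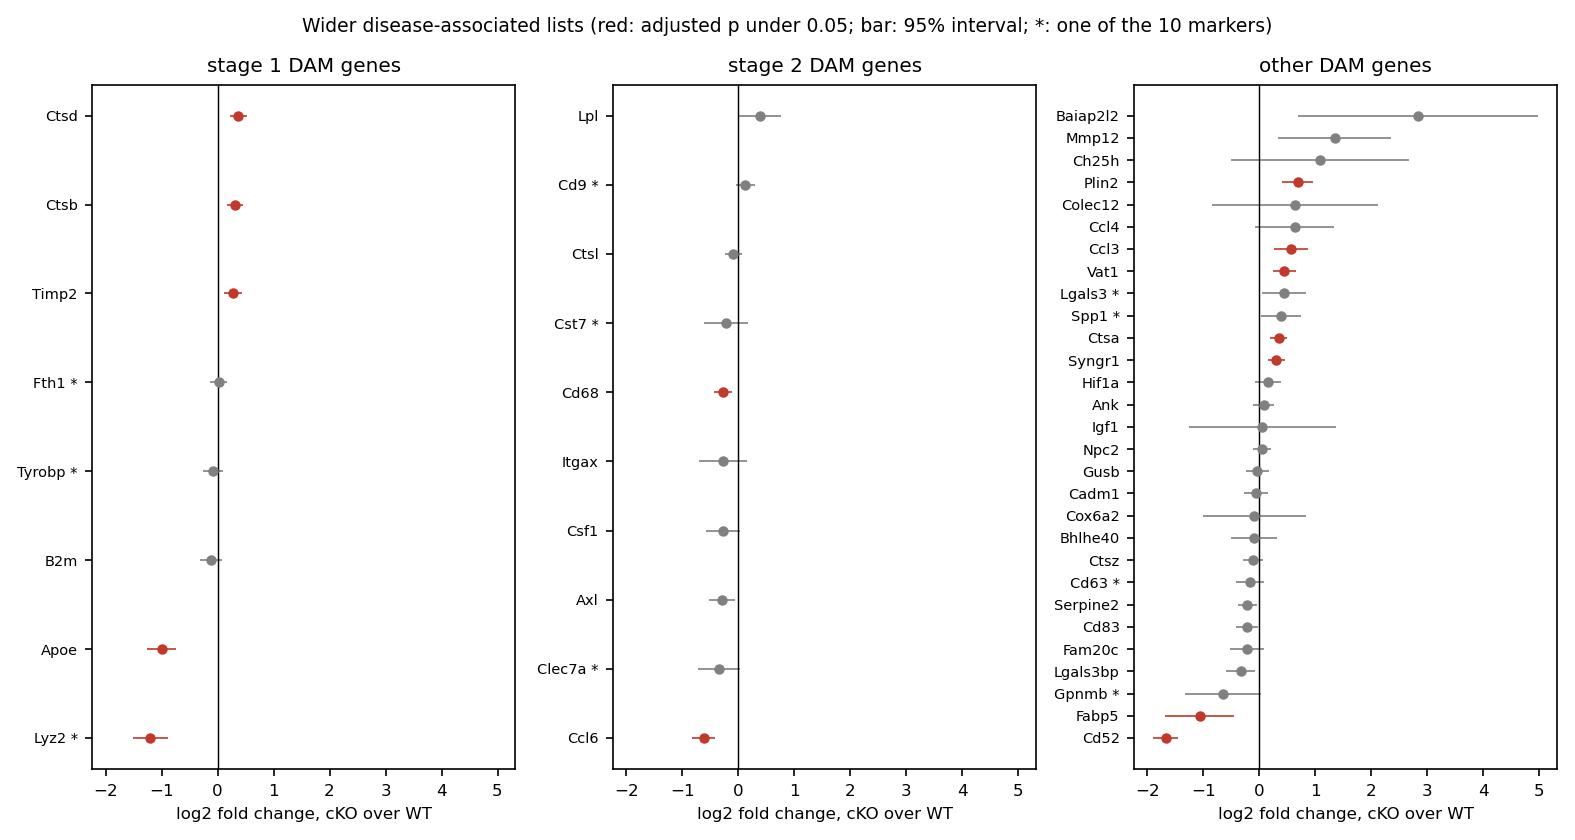
Log2 fold change, cKO over WT, with its 95% interval for every tested gene of the early (stage 1), late (stage 2) and further DAM lists. Red points passed the threshold and asterisks mark the 10 markers. Timp2, usually assigned to the later stage, is drawn in the early list. In the early list Lyz2 (-1.20) and Apoe (-0.998) lie on one side and Ctsd (0.37) and Ctsb (0.32) on the other, and the widest intervals belong to genes with few counts.

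**Figure D5:**
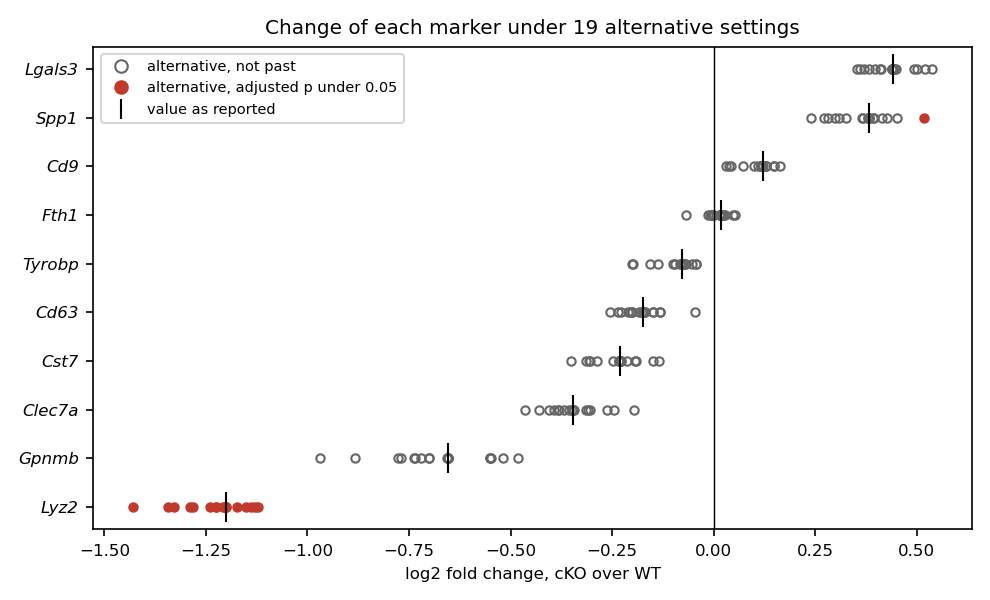
Log2 fold change of each marker, cKO over WT, under 19 alternative settings (circles) and as reported (vertical mark); filled red circles passed the threshold. Lyz2 passed in all 19, between -1.43 and -1.12, Spp1 in 1, and the other 8 in none.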

How the data were processed

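The labels state that a Direct-zol kit was used for RNA and a KAPA kit that marks strand, with mRNA selection, for libraries. Software named in the submitters' processing notes is bcl2fastq 2.17, FastQC and Trimmomatic, with build mm10; for the aligner, counter, strand setting and annotation no source used here has an entry. Values in the deposited table are raw counts by Ensembl gene, with a column for each sample. Between 73.5 and 83.9% of counts from 1 to 200 in a library were even. Whether both mates of a pair were counted is not stated, and an alternative divided the counts by 2. No 2 libraries of a group had matching counts (lowest chi-square per gene 17.8). Symbols came from the supplied gene table (37607 identifiers matched), coordinates and union exon lengths from GENCODE M21, sequences from M21 transcripts and RefSeq.

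Genes were filtered with filterByExpr (minimum count 10, minimum total 15), scaled by TMM and tested in R 4.3.3 with edgeR 4.0.16 (quasi-likelihood, robust, genotype only, all 11 samples); DESeq2 1.42.0 was an alternative. SE is the log2 fold change divided by the square root of F. Log2 CPM used a prior count of 2. The procedure was tested on simulated data. Close copies are annotated transcripts with at least 90% identity over at least 100 bases to a marker's coding part (blastn 2.17.0). The members and lists were chosen with earlier results of these data known. Named are Kdm6a, the 10 markers, their close copies, up to 4 called genes per list by smallest p or else the 2 highest in level, and the 3 genes most like a called marker (average log2 CPM at least 1, predicted and unnamed symbols left out); others are marked as chosen after their values were seen. Lilrb4a was not matched by symbol. Alternatives were library totals, DESeq2 size factors, DESeq2's Wald test, no filter on low counts, a covariate of neuron, astrocyte and oligodendrocyte markers, leaving out WT13, WT16 and WT17 or each sample, counts divided by 2 and, added later, summed copies.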

Additional observations from a re-analysis of the deposited data

Results flagged for a closer look

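Of 86 groups tested (the genes named by rule and those called in the lists, each in cKO and WT), 1 held a library set apart from its group, where chance gives about 1 in 20, or 4.3. Apoe in WT16 was low: 10.8 log2 CPM, against 11.0 for its nearest neighbour and 11.1 for the highest WT library, a gap of 0.642 of the group's range. None of the 10 markers held such a library.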

How the results depend on the processing

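No paired analysis was possible because the groups share no replicate numbers. Lyz2 kept its direction and its call in all 19 alternatives. Among the 10 markers the number called was 1 in every alternative except without cKO4, where Spp1 joined, so that leaving out single libraries gave 1 to 2. For the late list, markers included, leaving out single libraries gave 1 to 2 calls, with Cd68 the one that varied. For all genes it gave 437 (without cKO5) to 945 (without WT15), against 687 with every library. DESeq2's Wald test called 1225 of all genes. Of values near 0, Fth1 was at -0.067 with library totals, -0.014 with the marker covariate and -0.0072 without WT13, WT16 and WT17, and from -0.010 to 0.052 without single libraries. Trf was at -0.066, -0.038 and -0.056 in the same settings, and from -0.012 to 0.046 without single libraries. With library totals the median of all genes moved alike, and the cause of the other shifts was not tested. Dividing the counts by 2 left Gpnmb, the marker with the fewest counts, at -0.65 (SE 0.32).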

Other observations

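A pair of further DAM genes, chosen after their values were seen, had large positive log2 fold changes at very low levels and did not pass. Baiap2l2 averaged 2.28 ± 1.54 CPM in cKO (SD, n = 5) and 0.317 ± 0.302 CPM in WT (SD, n = 6), with every cKO library above every WT library (log2 fold change 2.83, SE 1.03; edgeR adjusted p = 0.131). Mmp12, a macrophage metalloproteinase, averaged 4.45 ± 1.84 CPM in cKO and 1.75 ± 1.082 CPM in WT, with overlapping groups (log2 fold change 1.34, SE 0.49; edgeR adjusted p = 0.128).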
